A study of Mus musculus with 21 samples.

Results

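The effect of Prrx1 editing was compared between cancer-associated fibroblasts (CAFs) of a mouse mammary tumour and fibroblasts of a healing skin wound. Bulk RNA-seq of 12 of the 21 cultures in the series was used, 6 of each cell type, with 3 cultures in each of 4 groups. MMTV-CAF were established from breast tumours of MMTV-PyMT mice, which carry the polyoma middle T oncogene under the MMTV promoter, with the strain labelled FVB/NJ. Wound-healing fibroblasts (WHF) came from dorsal skin of C57BL/6 mice 10 days after wounding. The sgPrrx1 cultures carried CRISPR/Cas9 with a guide RNA against the first exon of Prrx1, and the WT cultures a non-targeting guide. All lines of both types had been immortalised with papillomavirus oncogenes and were grown in the same serum-containing medium to near confluence. No source used here states whether the 3 cultures of a group came from separate clones or animals, so p-values measure the spread between these cultures, which may be technical. The quantity reported is the difference of the effects, which is the log2 fold change of sgPrrx1 against WT in MMTV-CAF minus the same fold change in WHF. A positive difference means that the change in CAF was the more positive one.

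Prrx1 is a homeodomain transcription factor of the paired-related family, made by mesenchymal cells of the embryo and by fibroblasts, and its close relative Prrx2 binds similar DNA. In healing skin, fibroblasts lay down collagen and turn for a time into contractile myofibroblasts. CAFs share much of this programme but keep it in the tumour, where they also secrete growth factors and chemokines. Counts per culture ranged from 105097945 to 134790440 in MMTV-CAF and from 69588655 to 91588690 in WHF. Levels are given as CPM, the count of a gene scaled to a common library size with TMM, a correction for composition. CPM is not corrected for gene length, so levels are compared between cultures, and a gene named as the most abundant or leading of its list is so by CPM alone.

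Cell type was tied to mouse strain, to the sex of the line and to the deposited table, and these cannot be told apart from it. Xist, the RNA that silences an X chromosome in female cells, was at 464, 397 and 467 CPM in WT CAF and at 359, 369 and 321 in sgPrrx1 CAF, and at under 0.1 CPM in every WHF culture. The Y-linked genes Ddx3y, Kdm5d, Eif2s3y and Uty had 0 counts in all 6 CAF cultures and were found in all 6 WHF cultures. Ddx3y, an RNA helicase gene, was at 21.3, 20.8 and 23 CPM in WT WHF but at 2.01, 2.02 and 2.26 in sgPrrx1 WHF. Eif2s3y on the same chromosome was at 26.0, 25.1 and 25.3 in WT and 24.1, 24.9 and 23.5 in sgPrrx1 WHF, so the Y-linked genes did not move together.

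The fibroblast label was checked against 11 markers. Of these, 10 were above 1 CPM in WT CAF, 8 in sgPrrx1 CAF, 10 in WT WHF and 9 in sgPrrx1 WHF, and their summed level was 37200 to 37700, 19900 to 20000, 11600 to 11800 and 6990 to 7040 CPM in that order. Col1a1, a chain of type I collagen, was the most abundant marker in both WT groups. Lum was under 2 CPM everywhere, and Fap was under 0.1 CPM in all CAF cultures. The marker Thy1 was at 56.2, 61.4 and 60.2 CPM in WT CAF and 0.608, 0.71 and 0.647 in sgPrrx1 CAF. In WHF Thy1 went from 52.1, 55.0 and 47.7 to 2.8, 2.98 and 3.13 CPM. Epcam and Cdh1 (epithelial), Ptprc (leukocyte) and Pecam1 (endothelial) stayed under 0.3 CPM in every culture. Single genes of other cell types nevertheless moved with editing. Krt19, a keratin, was at 55.7, 53.8 and 54.4 CPM in WT CAF and 0.163, 0.174 and 0.228 in sgPrrx1 CAF, against 45.8, 46.0 and 42.6 in WT WHF and 58.4, 59.8 and 62.9 in sgPrrx1 WHF. Trp63, a factor of basal epithelium, was at 2.66, 2.35 and 2.48 CPM in WT CAF and 31.8, 33.9 and 33.5 in sgPrrx1 CAF, and under 0.6 in WHF. Kdr, a VEGF receptor of endothelium, was at 297, 302 and 303 CPM in WT WHF and 144, 149 and 145 in sgPrrx1 WHF, and under 1.2 in CAF. In bulk cultures, fewer cells of a type and less RNA per cell cannot be told apart.

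Prrx1 itself responded almost alike in both types. Its level was 646, 654 and 658 CPM in WT CAF and 315, 316 and 307 in sgPrrx1 CAF, and 151, 148 and 157 in WT WHF and 67.1, 66.1 and 67.3 in sgPrrx1 WHF. Every edited culture was below every WT culture of its type, and all CAF cultures were above all WHF cultures. The difference of the effects was 0.12 (SE 0.031, adjusted p = 0.00291), from −1.06 in CAF and −1.19 in WHF. This was called by the test of any difference and not by the test of a more than 2-fold difference. Transcript abundance alone does not show how much protein was made, and the protein was not analysed here. Prrx1 lies at chr1:163245119-163315145 in GRCm38.p6, the assembly of the mm10 build used by the authors.

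Prrx2 went the other way in CAF. It was at 70.0, 78.2 and 76.0 CPM in WT CAF and 124, 119 and 122 in sgPrrx1 CAF, but at 22.4, 22.8 and 21.1 in WT WHF and 16.9, 17.8 and 16.4 in sgPrrx1 WHF. The groups did not overlap within either type. The difference was 1.08 (SE 0.063, adjusted p = 6.22e-09), but at an adjusted p of 0.152 it did not pass the 2-fold rule.

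Other fibroblast transcription factors differed far more than the Prrx genes did. Of 36 tested members of a list of Prrx and core fibroblast factors, 13 passed the 2-fold rule, 6 in the positive and 7 in the negative direction, and the median difference of the list was 0.04. Over all genes, 22.9% passed this rule, 10.4% in the positive and 12.4% in the negative direction. Klf4, a pluripotency and differentiation factor, was at 157, 165 and 158 CPM in WT CAF and 61.3, 59.9 and 57.9 in sgPrrx1 CAF, whereas in WHF it went from 29.6, 29.0 and 31.8 to 94.8, 91.1 and 92.7. The edited CAF and edited WHF cultures thus crossed, with a difference of −3.05 (SE 0.051, 2-fold adjusted p = 1.04e-12). Snai1, a driver of mesenchymal transition, was likewise lower in edited CAF and higher in edited WHF (−1.30 in CAF, 0.51 in WHF, difference −1.81, SE 0.066). The same held for Zeb2, another such factor (difference −1.20, SE 0.040), which stayed higher in edited CAF than in edited WHF, and for Tead1, a partner of the Hippo co-activators (difference −1.47, SE 0.045).

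Foxf1, a factor of visceral and dermal mesenchyme, showed the reverse pattern, with 5.37, 6.05 and 5.34 CPM in WT CAF, 64.1, 60.2 and 60.9 in sgPrrx1 CAF, 18.5, 16.9 and 20.5 in WT WHF and 8.52, 8.16 and 7.85 in sgPrrx1 WHF (difference 4.65, SE 0.099). Tbx18, a T-box factor of mesenchymal and mural cells, was at 90.6, 91.6 and 93.4 CPM in WT CAF and 96.9, 101 and 98.7 in sgPrrx1 CAF, and dropped from 21.1, 20.4 and 21.4 to 5.69, 4.74 and 4.92 in WHF (difference 2.14, SE 0.071). Mkx, a tendon factor, had 0 counts in all WT CAF cultures and 26.9, 27.2 and 26.9 CPM in sgPrrx1 CAF, which was at least 3090-fold higher against a floor of 3 counts over the group. In WHF it was present throughout, at 13.0, 14.3 and 14.3 CPM in WT and 11.4, 12.6 and 11.4 in sgPrrx1 cultures.

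**Figure D1:**
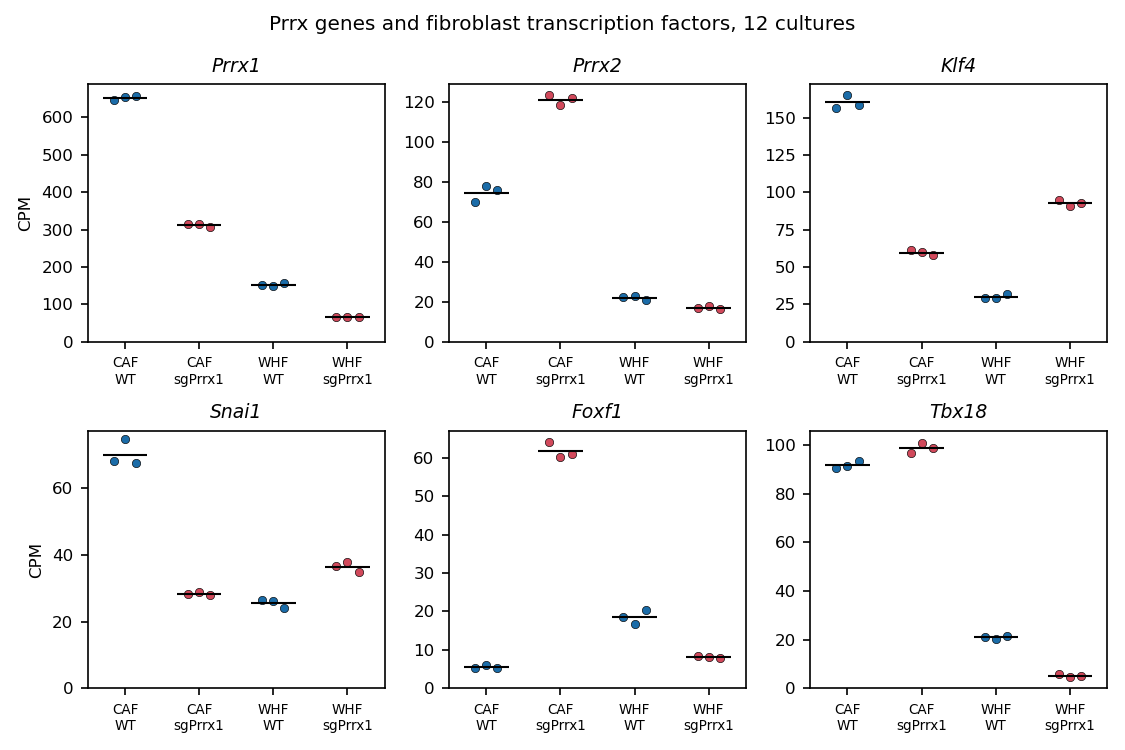
Level of 6 transcription factor genes in CPM (linear axis from 0) in each culture of the 4 groups, with blue points for WT, red points for sgPrrx1 and a bar at the mean of 3 cultures. Prrx1 is lower after editing in both types, while Klf4 and Snai1 are lower in edited CAF and higher in edited WHF, and Foxf1 does the opposite.

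Homeodomain proteins of this family bind sites with the core TAATTA. The letters TAATTA, which read the same on both strands, were searched in the 250 bases before each annotated start in RefSeq promoters of GRCm38.p6. Promoters were listed for 11570 of the 14853 genes tested, and 372 of 14652 promoters (2.54%) held the letters. The share was 3.86% in 207 promoters of genes that were higher in CAF and lower in WHF, and 4.78% in 335 promoters of genes with the reverse pattern, at least 2-fold in each type. Among 555 promoters of genes that changed at least 2-fold in the same direction it was 3.42%, and among 1794 promoters of genes past the 2-fold rule in the negative direction it was 2.40%, beside 3.15% among 1490 in the positive direction. These shares are descriptions, and a match is not a binding site. The promoters of Prrx1, of 2 genes that moved in opposite directions and of 1 that moved alike are shown, 100 bases each, with the match in capitals. They lie at chr1:163313771-163313870 (minus strand), chr5:104436023-104436122 (plus strand), chr19:29945566-29945665 (plus strand) and chr12:101818539-101818638 (minus strand).
Prrx1: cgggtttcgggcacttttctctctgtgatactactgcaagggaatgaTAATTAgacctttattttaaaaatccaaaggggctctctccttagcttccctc
Spp1: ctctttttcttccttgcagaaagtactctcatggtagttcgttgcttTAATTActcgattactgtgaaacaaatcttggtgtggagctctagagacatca
Il33: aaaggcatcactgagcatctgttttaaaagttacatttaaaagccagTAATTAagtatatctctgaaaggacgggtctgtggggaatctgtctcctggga
Fbln5: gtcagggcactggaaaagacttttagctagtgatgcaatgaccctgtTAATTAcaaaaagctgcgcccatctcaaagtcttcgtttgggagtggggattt

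Across the transcriptome the effects of editing differed between the cell types at most genes. Of 24455 genes listed in both tables, 14853 had enough counts to be tested, and 11329 of them (76.3%) differed at an adjusted p under 0.05 by edgeR's quasi-likelihood test. The CAF effect was the more positive in 5673 (38.2%) and the more negative in 5656 (38.1%). At this depth small differences passed the test, and the median standard error of a difference was 0.068 on the log2 scale. A stricter rule asked whether the difference exceeded 2-fold (edgeR's glmTreat), and 3401 genes (22.9%) passed it, 1552 (10.4%) in the positive and 1849 (12.4%) in the negative direction. The median absolute difference was 0.71, beside median absolute effects of 0.50 in CAF and 0.39 in WHF.

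A large difference favours effects of opposite sign by its construction. Of the 3401 genes, 2181 had both effects called with opposite signs, 532 had only the CAF effect called and 177 only the WHF effect. A further 384 moved in the same direction more strongly in CAF, and 127 more strongly in WHF. The CAF effect was the larger of the pair in 2374 genes and the WHF effect in 1027. A group stood at 0 counts in 384 of the 3401, where the fitted size is not meaningful and only a bound can be given. Among the 9035 genes at 10 CPM or more in at least 1 group of each type, 1627 (18.0%) passed the 2-fold rule. Regardless of the size of the difference, where both effects were called among these 9035 genes, 2042 were higher in CAF and lower in WHF, 1798 the reverse, 1647 lower in both and 1269 higher in both. Across the 9035 genes the effects in CAF and in WHF had a Pearson correlation of 0.039, a description over genes that share their libraries.

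**Figure D2:**
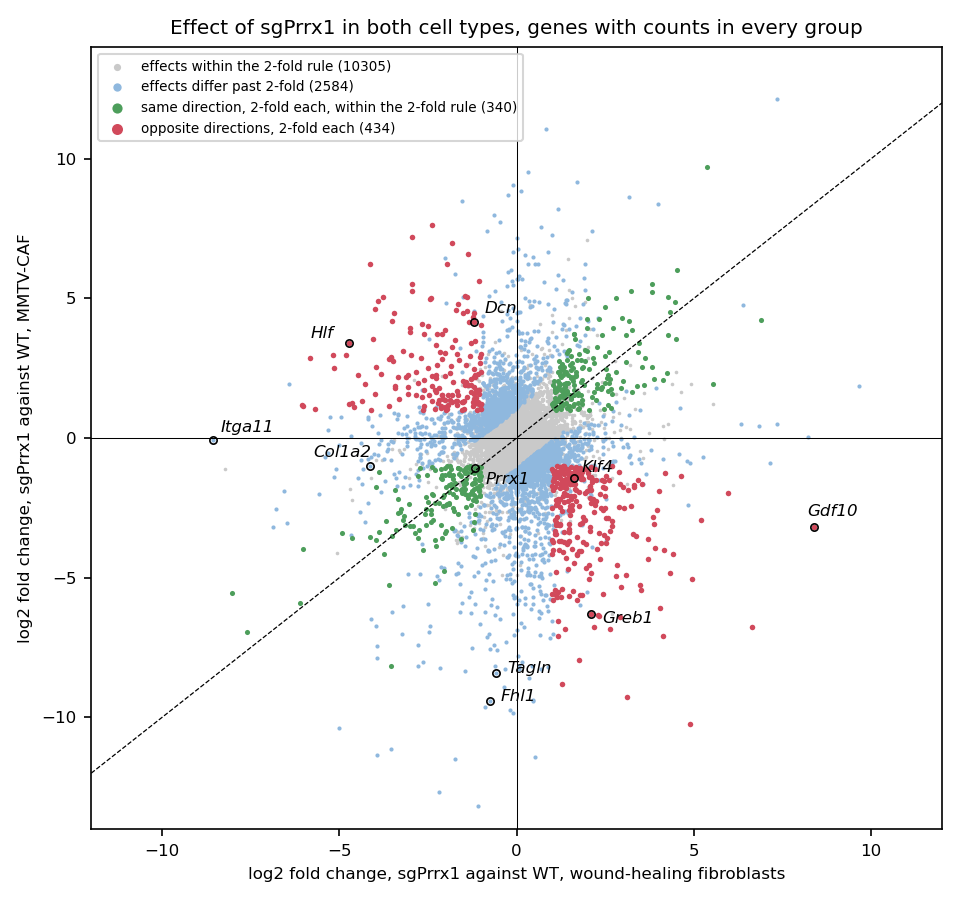
Log2 fold change of sgPrrx1 against WT in WHF (horizontal) and in MMTV-CAF (vertical), 1 point a gene, for the 13663 genes with counts in every group; the other 1190 are not drawn. Blue points passed the 2-fold rule, green points moved at least 2-fold in the same direction within it, grey points are the rest, and the dashed line marks equal effects. Genes fill all 4 quadrants, with 434 of those drawn in red because they moved at least 2-fold in opposite directions, and Prrx1 lies close to the line.

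Opposite movement was defined as an effect called in both types, at least 2-fold in each and with opposite signs. It held for 569 genes, 3.83% of those tested, and for 231 of 12009 when at least 10 counts were required in every culture. Of these, 203 were higher in edited CAF and lower in edited WHF, and 366 were lower in edited CAF and higher in edited WHF. Altogether 1179 genes changed at least 2-fold in both types, so the 569 were 48.3% of them. The other 610 moved in the same direction, 340 lower in both and 270 higher in both.

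Among the genes higher in CAF and lower in WHF, Hlf, a circadian-related bZIP factor, was at 8.54, 8.83 and 8.43 CPM in WT CAF and 89.4, 92.6 and 88.1 in sgPrrx1 CAF. In WHF it was at 29.1, 28.9 and 31.2 in WT and 1.15, 1.16 and 1.05 in sgPrrx1 cultures. The groups were thus ordered one way in CAF and the other in WHF, and the difference was 8.11 (SE 0.063, 2-fold adjusted p = 2.49e-16). Casp4, an inflammatory caspase that senses bacterial lipopolysaccharide, went from 11.1, 11.4 and 11.3 to 93.8, 96.2 and 93.5 CPM in CAF, and from 16.5, 17.1 and 18.8 to 3.67, 4.05 and 4 in WHF (difference 5.23, SE 0.069). The others of this kind were Pde1a, a calcium-dependent phosphodiesterase (difference 6.71), the water channel Aqp5 (6.53), the potassium channel subunit Kcnab1 (6.11), the engulfment factor Elmo1 (5.30) and Xlr (4.88). Xlr belongs to an X-linked family of near-identical copies, so its count is uncertain.

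In the reverse group, Gdf10, a BMP-like ligand, was at 150, 157 and 153 CPM in WT CAF and 18.1, 16.6 and 15.4 in sgPrrx1 CAF. It was almost silent in WT WHF (0.147, 0.308 and 0.156 CPM) and reached 68.4, 66.5 and 68.0 in sgPrrx1 WHF. The difference of −11.59 (SE 0.149, 2-fold adjusted p = 1.53e-14) was the widest among the 15 opposite genes named here. Greb1, an oestrogen-responsive gene, was at 11.2, 11.3 and 11.7 CPM in WT CAF and 0.164, 0.166 and 0.0911 in sgPrrx1 CAF, against 48.2, 46.9 and 47.9 in WT WHF and 212, 200 and 206 in sgPrrx1 WHF (difference −8.43, SE 0.102). Id4, an inhibitor of helix-loop-helix factors, was at 20.8, 22.1 and 21.5 CPM in WT CAF and 0.5, 0.430 and 0.401 in sgPrrx1 CAF, and went from 3.11, 2.69 and 3 to 16.2, 15.7 and 15.6 in WHF (difference −8.02, SE 0.097). Srgap1, a GTPase-activating protein of Slit-Robo signalling, differed by −6.14, Acsbg1, an acyl-CoA synthetase, by −7.38, and Samd5 by −4.41. Ifi27l2b (−8.96) and Prl2c3 (−6.52) have near-identical relatives, so their counts are uncertain. For Prl2c3, 1 culture carried most of the WHF effect, since edited WHF stood at 28.1, 2.97 and 1.98 CPM.

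**Figure D3:**
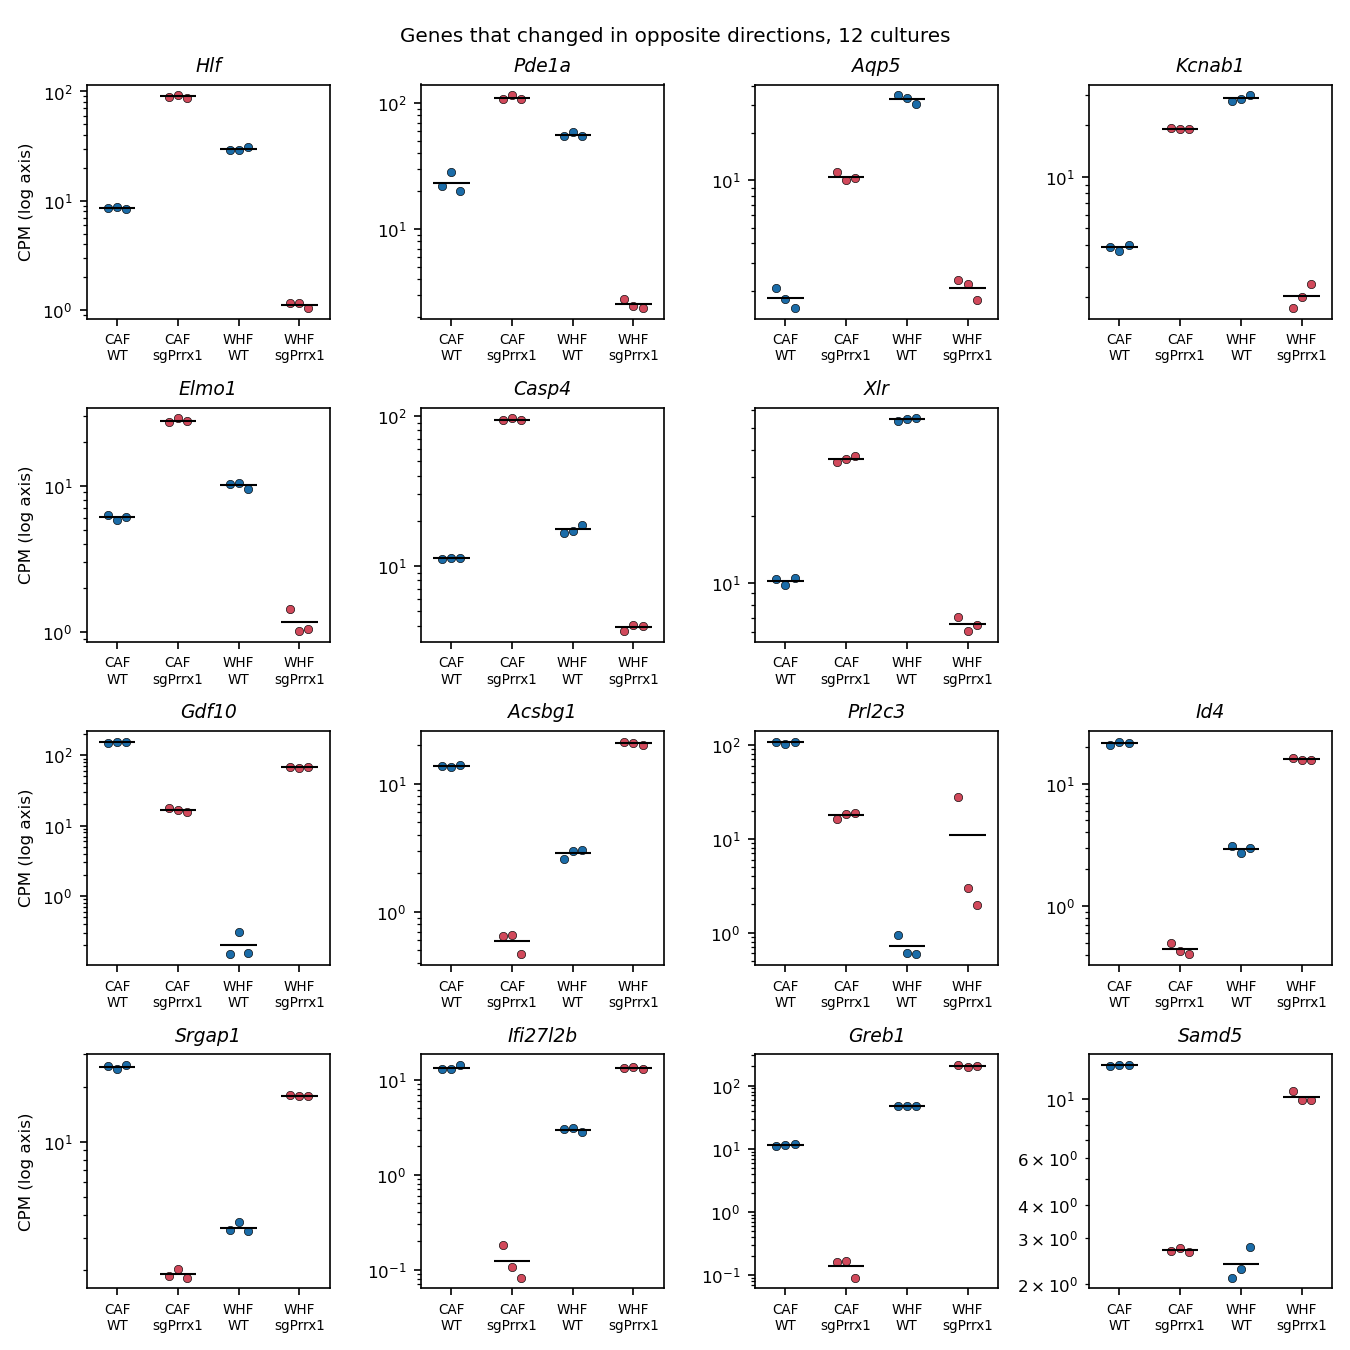
CPM (log axis) of the 15 named genes that moved in opposite directions, in each of 12 cultures, with blue points for WT, red for sgPrrx1 and a bar at the mean of 3. In the upper 2 rows red lies above blue in CAF and below it in WHF, and in the lower 2 rows the order is reversed.

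Among genes at 10 CPM or more in at least 1 group of each type, the 8 most negative fitted differences shared 1 form. Each of these genes was detected in WT CAF and had 0 counts in sgPrrx1 CAF, so the fitted size is not a measured one. Grb10, an imprinted adaptor that restrains insulin and IGF signalling, was at 205, 203 and 212 CPM in WT CAF and at 0 in all 3 sgPrrx1 CAF cultures, at least 24200-fold lower against the floor of 3 counts. In WHF it was at 230, 224 and 234 CPM in WT and 156, 159 and 158 in sgPrrx1 cultures. Thus an abundant transcript of both WT lines was not detected in the edited CAF and was kept in the edited WHF. Gpc6, a glypican that anchors heparan sulphate at the cell surface, had 76.1, 73.9 and 77.1 CPM in WT CAF and 0 in sgPrrx1 CAF, at least 8890-fold lower, beside 30.7, 29.2 and 29.6 in WT WHF and 29.2, 32.7 and 31.0 in sgPrrx1 WHF. Adcyap1r1, a neuropeptide receptor (at least 17800-fold lower in CAF), Ctla2a (8390), Map2, a microtubule protein of neurons (3360), Gnpda2, an enzyme of hexosamine metabolism (2320), Col11a1 (1550) and Scara3, a scavenger receptor (1380), showed the same form, and all 8 were above 6 CPM in both WHF groups. An effect of editing and a property of the edited cultures cannot be told apart here.

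On the positive side, Efna5, an ephrin ligand, was at 0.0578, 0 and 0.0625 CPM in WT CAF and 30.7, 30.9 and 30.4 in sgPrrx1 CAF, but at 20.4, 20.6 and 21.1 in WT and 26.7, 24.8 and 25.7 in sgPrrx1 WHF (difference 9.19, SE 0.200). Itga11, a collagen-binding integrin subunit, was lost in the other line: it was at 44.1, 43.6 and 44.8 CPM in WT CAF and 43.2, 40.8 and 41.9 in sgPrrx1 CAF, and went from 13.4, 14.8 and 13.9 to 0, 0.0442 and 0.0689 in WHF (difference 8.48, SE 0.207). Brinp3, a neural gene induced by BMP and retinoic acid, was likewise much lower in edited WHF, with 81.2, 80.2 and 81.7 CPM in WT and 1.27, 1.21 and 1.23 in sgPrrx1 cultures, and was higher in edited CAF (difference 7.19, SE 0.054). Among the genes named, near-complete loss was thus seen in edited CAF at some and in edited WHF at others.

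Gene lists of fibroblast functions were next compared by their counts and medians, beside 22.9% of all genes past the 2-fold rule and a median difference of −0.01 over all genes. The lists differed in direction. Contractile genes and matrix glycoproteins lay mostly on the negative side, meaning a lower or less raised level in CAF. Chemokines, interferon-response genes, MHC class I genes and cell-cycle genes lay mostly on the positive side. Setting every effect against a group at 0 to its bound moved the median of 5 of the 21 lists, by at most 0.366 (Wnt genes, whose median ranged from −0.69 to 0.11 over 22 settings and so had no stable sign).

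**Figure D4:**
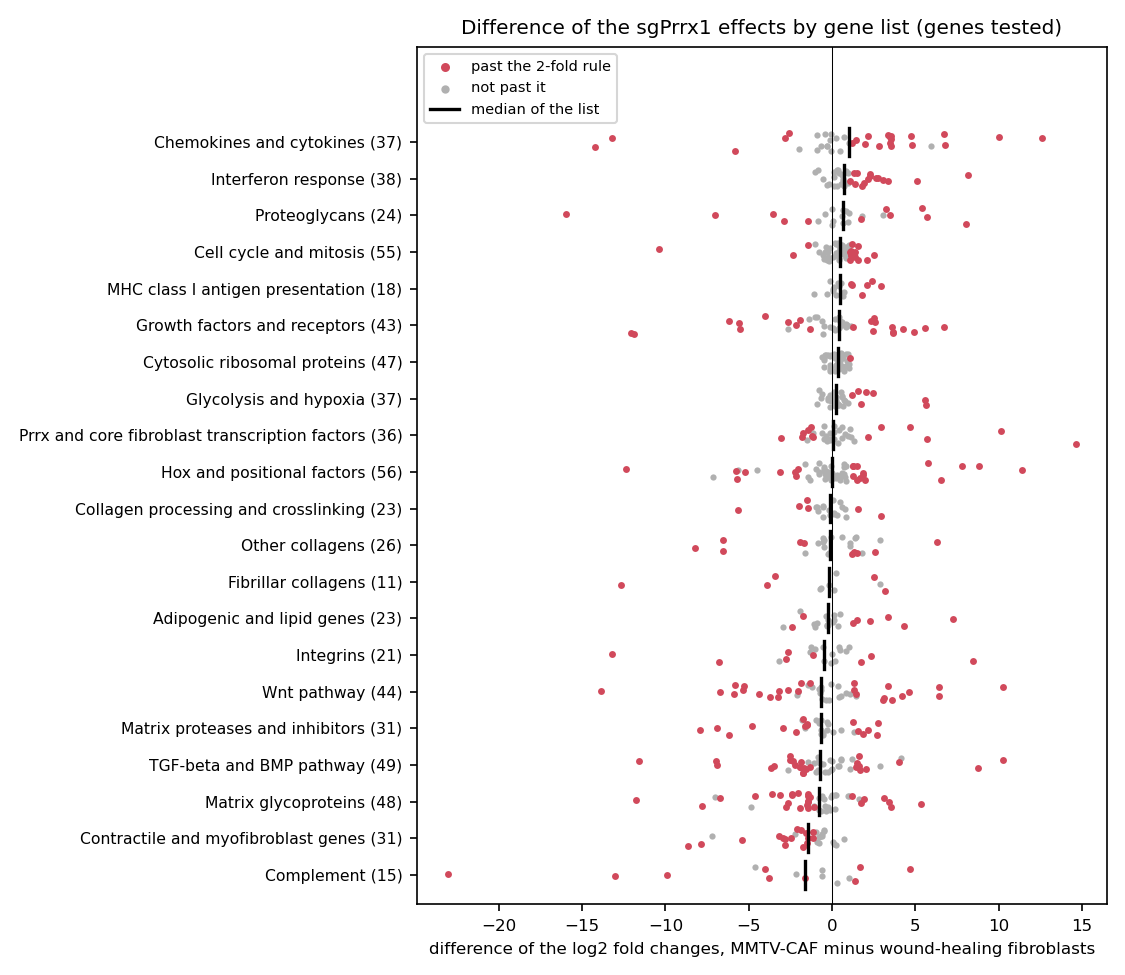
Difference of the sgPrrx1 effects (log2, MMTV-CAF minus WHF) for the tested genes of 21 lists, 1 point a gene, red where it passed the 2-fold rule, with the number tested in brackets and the median as a black bar. Differences that involve a group at 0 counts are drawn at their fitted value, which is not a measured size. The medians run from −1.64 for complement genes to 1.02 for chemokines and cytokines.

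Contractile genes, which give myofibroblasts their actin stress fibres, lay mostly on the negative side. Of 31 tested, 16 passed the 2-fold rule in the negative direction and 0 in the positive direction. By the test of any difference 25 were negative and 1 positive, beside 38.1% and 38.2% of all genes. Their median effect was −1.51 in CAF and −0.08 in WHF. Tagln, the actin-binding protein transgelin, was at 451, 448 and 444 CPM in WT CAF and 1.58, 1.25 and 1.09 in sgPrrx1 CAF, against 1829, 1856 and 1760 in WT WHF and 1209, 1215 and 1250 in sgPrrx1 WHF (difference −7.85, SE 0.111). Fhl1, a LIM-domain protein of muscle and stress fibres, was at 81.3, 84.2 and 84.6 CPM in WT CAF and 0.0817, 0.151 and 0.128 in sgPrrx1 CAF, and at 309, 310 and 290 in WT WHF and 180, 180 and 182 in sgPrrx1 WHF (difference −8.66, SE 0.098). Edited CAF had thus nearly lost both transcripts, while edited WHF kept most of it. Acta2, the smooth muscle actin used to mark myofibroblasts, was chosen here after its values were seen. It averaged 2177 CPM in WT and 143 in sgPrrx1 CAF, and 1676 in WT and 768 in sgPrrx1 WHF (difference −2.80, SE 0.027). Srf, the factor that drives many contractile genes, differed by −1.15 (SE 0.034), lower in edited CAF and higher in edited WHF. The summed level of 8 markers of pericytes and smooth muscle also moved with editing. It was 71.5 to 72.1 CPM in WT CAF and 9.97 to 10.6 in sgPrrx1 CAF, and 58.9 to 61.4 in WT and 65.1 to 67.6 in sgPrrx1 WHF. The most abundant of them was Cspg4 in both CAF groups and in WT WHF and Mcam in sgPrrx1 WHF, although Cspg4 fell in both types (−3.28 in CAF and −1.73 in WHF), 1 marker was at 0 in every culture, and their part in the result was not tested.

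SRF binds the CArG box, which was searched on both strands of the same promoter windows. It was present in 181 of 14652 promoters (1.24%) and in 8 of the 36 promoters of contractile genes (22.2%), namely of Acta1, Cnn2, Fhl1, Fhl2, Myl9, Srf and Vcl. It overlapped the letters TAATTA in 1 promoter of all those searched. CArG boxes are shown in capitals for the 4 of these 7 genes that passed the 2-fold rule: Fhl1 (−8.66), Acta1 (−5.42), the myosin light chain gene Myl9 (−2.95) and Srf (−1.15). Cnn2 (−0.63), Fhl2 (−0.64) and Vcl (−0.63) did not pass it. The windows lie at chrX:56779536-56779635 (plus strand), chr8:123894794-123894893 (minus strand), chr2:156775258-156775357 (plus strand) and chr17:46556180-46556279 (minus strand).
Fhl1: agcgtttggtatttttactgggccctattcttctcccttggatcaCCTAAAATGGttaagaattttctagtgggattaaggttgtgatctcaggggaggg
Acta1: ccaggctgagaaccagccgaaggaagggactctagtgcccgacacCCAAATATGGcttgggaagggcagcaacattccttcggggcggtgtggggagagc
Myl9: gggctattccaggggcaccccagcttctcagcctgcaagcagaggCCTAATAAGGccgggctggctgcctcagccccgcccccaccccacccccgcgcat
Srf: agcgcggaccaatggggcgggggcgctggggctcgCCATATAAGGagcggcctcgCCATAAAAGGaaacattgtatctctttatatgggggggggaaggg

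**Figure D5:**
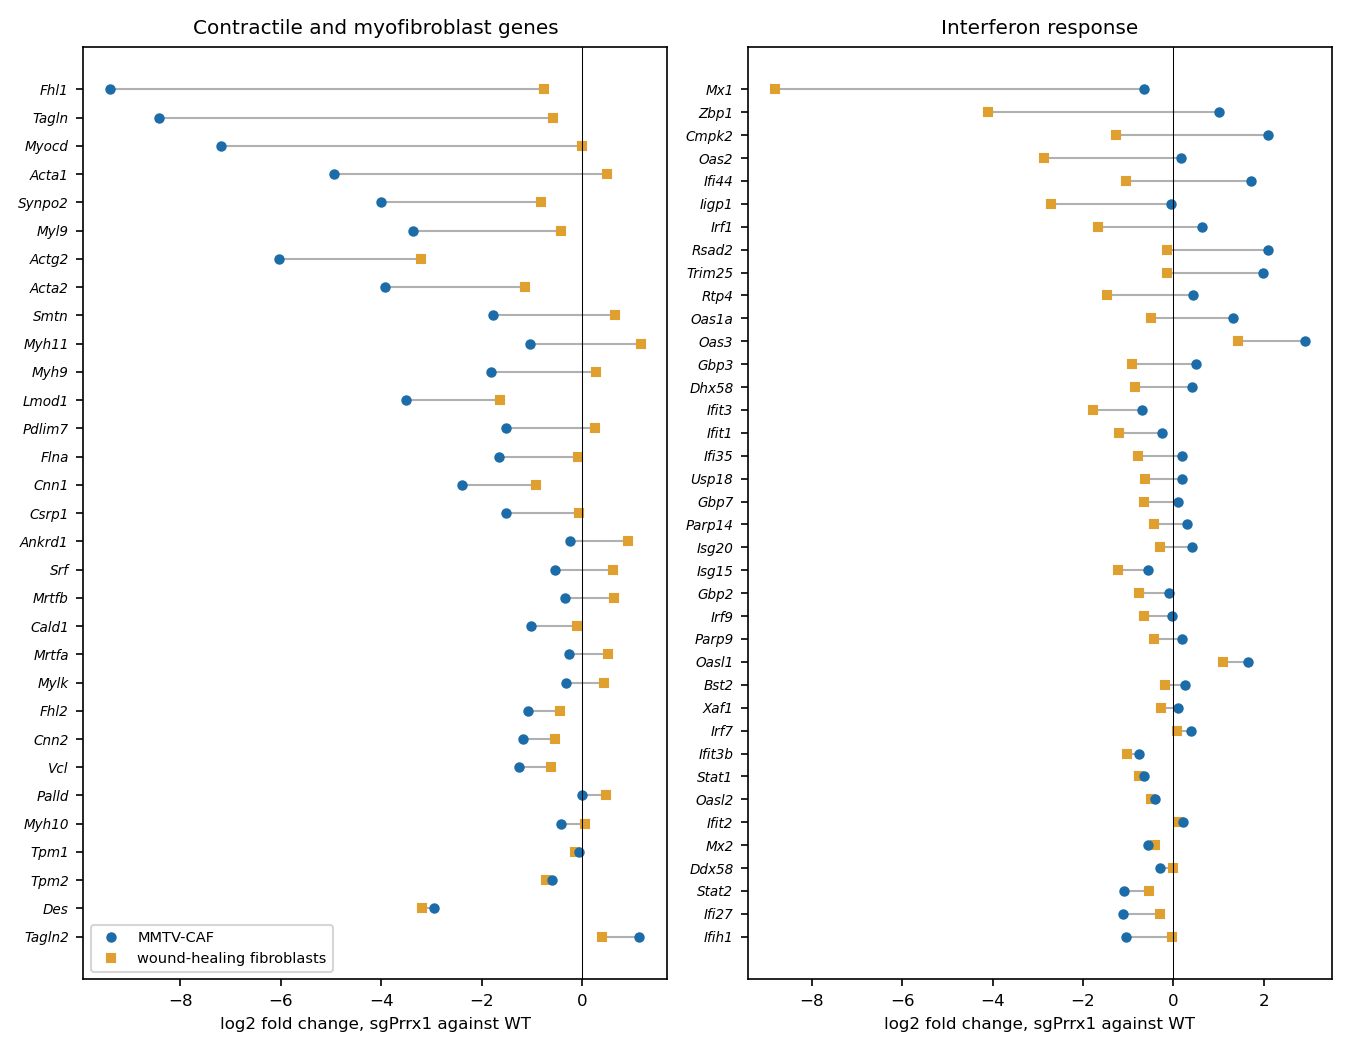
Log2 fold change of sgPrrx1 against WT in MMTV-CAF (blue circles) and WHF (orange squares) for each contractile gene (left) and interferon-response gene (right), sorted by the size and sign of the difference. Blue lies left of orange for most contractile genes and right of it for most interferon genes. Myocd and Mx1 are drawn at fitted values although they had groups at 0 counts.

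Fibrillar collagens, the main load-bearing fibres of scar and tumour stroma, split by chain. Of 11 tested, 5 passed the 2-fold rule, 2 positive and 3 negative, with medians of −0.99 in CAF and −0.71 in WHF. Col1a2, a chain of type I collagen, was at 10180, 10010 and 10070 CPM in WT CAF and 5026, 5092 and 5117 in sgPrrx1 CAF, and at 1948, 1887 and 1982 in WT WHF and 111, 109 and 110 in sgPrrx1 WHF. The fall was the steeper in WHF (difference 3.15, SE 0.023), although the partner chain Col1a1 had similar effects of −1.6 and −1.42. Col11a1, a minor fibril chain enriched in activated stroma, was at 13.8, 12.6 and 13.3 CPM in WT CAF and 0 in sgPrrx1 CAF, but at 40.5, 39.2 and 40.1 in WT and 23.9, 24.4 and 25.2 in sgPrrx1 WHF. Col27a1, a chain of cartilage-type fibrils, moved in opposite directions (−1.5 and 2.42, difference −3.92, SE 0.132). Of 26 other collagens, 5 passed in each direction, among them the microfibril chain Col6a3, which fell more in WHF (difference 1.5, SE 0.037).

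Enzymes that process and cross-link collagen were close to the background, with 6 of 23 past the 2-fold rule. Lox, the lysyl oxidase that starts cross-links, was at 3079, 3102 and 3152 CPM in WT CAF and 1293, 1278 and 1265 in sgPrrx1 CAF, and went from 832, 835 and 827 to 118, 117 and 113 in WHF, the deeper fall (difference 1.56, SE 0.023). Bmp1, the procollagen C-proteinase, differed in the other direction (−1.72 in CAF, 0.26 in WHF, difference −1.98, SE 0.032). Tgm2, a transglutaminase that cross-links matrix proteins, was higher in edited CAF and lower in edited WHF (difference 2.94, SE 0.062). No single direction described these enzymes.

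Matrix glycoproteins had a median effect of −1.34 in CAF and −0.24 in WHF. Of 48 tested, 27 passed the 2-fold rule, 20 negative and 7 positive. Lama4, a laminin chain of basement membranes, was at 96.8, 92.2 and 97.7 CPM in WT CAF and 1.01, 1.09 and 0.820 in sgPrrx1 CAF. In WHF it was near 1 CPM in all cultures, which leaves little room for a fall there (difference −6.73, SE 0.148). Fn1, the fibronectin on which collagen fibres assemble, was at 8900, 8640 and 8820 CPM in WT CAF and 4600, 4600 and 4550 in sgPrrx1 CAF, but rose from 2380, 2420 and 2340 to 3470, 3450 and 3370 in WHF (difference −1.47). Spp1, the secreted cytokine-like protein osteopontin, ran against the list, with 917, 829 and 860 CPM in WT CAF and 3563, 3599 and 3627 in sgPrrx1 CAF, and 874, 925 and 861 in WT WHF and 311, 313 and 310 in sgPrrx1 WHF. The WT groups overlapped, and the edited groups lay far apart (difference 3.56, SE 0.047, 2-fold adjusted p = 6.49e-14). Postn, a periostin of scar and tumour stroma chosen after its values were seen, fell in both types and further in CAF (difference −4.63, SE 0.036).

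Among 24 proteoglycans, 6 passed the 2-fold rule in the positive and 5 in the negative direction. Dcn, the collagen-binding decorin, was at 32.5, 33.6 and 34.2 CPM in WT CAF and 594, 610 and 599 in sgPrrx1 CAF, and went from 10.4, 8.68 and 10.6 to 4.32, 4.99 and 3.57 in WHF (difference 5.37, SE 0.135). Prelp, which links collagen to basement membranes, was at 183, 196 and 186 CPM in WT CAF and 480, 478 and 469 in sgPrrx1 CAF, and fell from 6.15, 5.22 and 4.75 to 0.230, 0.310 and 0.234 in WHF (difference 5.70, SE 0.137). Dcn and Prelp, both small leucine-rich proteoglycans, thus gained in edited CAF and declined in edited WHF, which not every member of that family did. Has2, the enzyme that makes hyaluronan, did the reverse, from 50.0, 51.5 and 51.3 to 13.6, 14.1 and 13.9 CPM in CAF and from 35.2, 35.5 and 36.5 to 115, 116 and 112 in WHF (difference −3.55, SE 0.038). Fmod, or fibromodulin, a further small leucine-rich proteoglycan, fell in both types. It went from 1.83, 1.96 and 1.76 CPM to 0 in WHF (at least 154-fold lower) and from 69.6, 71.0 and 71.6 to 12.4, 13.3 and 12.2 in CAF.

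Matrix proteases and their inhibitors had 16 of 31 members past the 2-fold rule, 10 negative and 6 positive. Mmp2, a gelatinase, was at 202, 205 and 198 CPM in WT CAF and 888, 874 and 862 in sgPrrx1 CAF, and at 75.8, 79.3 and 76.3 in WT WHF and 53.8, 50.9 and 51.9 in sgPrrx1 WHF (difference 2.68, SE 0.036). Mmp3, or stromelysin, moved in the opposite sense (−3.51 and 3.36, difference −6.88, SE 0.179), though it did not exceed 1.2 CPM in WHF. Of 21 integrin subunits, 3 were positive and 5 negative, including Itga6, a laminin receptor subunit (0.59 in CAF and −1.16 in WHF, difference 1.75, SE 0.055).

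TGF-beta and BMP genes, which control myofibroblast conversion, had 26 of 49 members past the 2-fold rule, 17 negative and 9 positive. Among the ligands, Bmp4 was at 17.7, 18.5 and 19.3 CPM in WT CAF and 114, 114 and 112 in sgPrrx1 CAF, and at 8.91, 8.60 and 8.61 in WT WHF and 3.54, 3.13 and 3 in sgPrrx1 WHF (difference 4.04, SE 0.070). Gdf10, described above, went in the opposite sense. Among the inhibitors, Smad7, which is itself induced by TGF-beta, was lower in edited CAF and higher in edited WHF (−1.39 and 2.10, difference −3.49, SE 0.078; chosen after its values were seen). Ligands and inhibitors alike were found on both sides of the comparison.

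Of 44 Wnt genes, 14 passed the 2-fold rule in the negative and 12 in the positive direction. Wnt5a, a ligand of planar polarity signalling, was at 39.3, 40.2 and 38.1 CPM in WT CAF and 0.672, 0.521 and 0.984 in sgPrrx1 CAF, whereas in WHF it went from 18.3, 17.4 and 17.7 to 34.5, 34.9 and 33.0 (difference −6.71, SE 0.150). Wnt7b, an epithelial-type ligand, was under 0.3 CPM in all CAF cultures and went from 49.1, 50.5 and 52.1 to 3.71, 4.35 and 4.46 CPM in WHF. Wnt5a thus lost most of its transcript in edited CAF and not in edited WHF. Wnt7b lost most of its transcript in edited WHF, and its level in CAF was too low for a fall to be seen.

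Growth factors and their receptors were evenly split, with 12 of 43 positive and 10 negative past the 2-fold rule. Igfbp4, which sequesters insulin-like growth factors, was at 34.0, 35.3 and 34.5 CPM in WT CAF and 694, 696 and 693 in sgPrrx1 CAF, but went from 45.1, 44.2 and 43.1 to 18.1, 18.5 and 19.7 in WHF (difference 5.56, SE 0.044, 2-fold adjusted p = 3.53e-16). Igfbp3, of the same family, was at 88.6, 95.2 and 86.9 CPM in WT CAF and 0, 0 and 0.0273 in sgPrrx1 CAF, and at or under 1 CPM in WHF. Pdgfra, the PDGF receptor that defines fibroblasts, was at 986, 956 and 969 CPM in WT CAF and 1870, 1880 and 1880 in sgPrrx1 CAF, and dropped from 59.6, 62.2 and 61.4 to 21.7, 21.7 and 22.2 in WHF (difference 2.43, SE 0.026). Angpt1, a vessel-stabilising ligand, and Areg, an EGF receptor ligand, were also higher in edited CAF and lower in edited WHF, with differences of 4.89 (SE 0.084) and 6.69 (SE 0.174).

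Chemokines and cytokines had the most positive median of the 21 lists, at 1.02, from 1.35 in CAF and 0.19 in WHF. Of 37 tested, 17 passed the 2-fold rule in the positive and 5 in the negative direction. Csf3, the granulocyte colony-stimulating factor, had 0 counts in WT CAF and 16.4, 16.4 and 16.3 CPM in sgPrrx1 CAF (at least 1870-fold higher), beside 0.306, 0.256 and 0.311 in WT WHF and 0.598, 0.553 and 0.661 in sgPrrx1 WHF. Il33, an alarmin, was at 1.24, 1.17 and 1.20 CPM in WT CAF and 20.5, 21.3 and 20.2 in sgPrrx1 CAF, and went from 9.23, 8.11 and 9 to 1.33, 1.27 and 1.57 in WHF (difference 6.76, SE 0.108). Cxcl14, a chemokine of fibroblasts and epithelium, was 1 of the 5 on the negative side, at 37.7, 39.5 and 38.8 CPM in WT CAF and 0 in sgPrrx1 CAF (at least 4540-fold lower), and under 0.4 CPM in WHF. Leukocyte markers summed to 9.10 to 9.97 CPM in WT CAF and 2.08 to 2.65 in sgPrrx1 CAF, and 2.94 to 3.74 in WT and 4.07 to 5.28 in sgPrrx1 WHF, with Csf1r the most abundant in WT CAF, Cd74 in sgPrrx1 CAF and Cd68 in WHF.

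Complement genes had the most negative median, −1.64, but it ranged from −1.83 to 1.01 over the 22 settings tried, so the list had no stable direction. Of 15 tested, 6 were negative and 3 positive past the 2-fold rule. C1ra, a protease of the classical pathway, was at 166, 165 and 163 CPM in WT CAF and 559, 567 and 555 in sgPrrx1 CAF, and at 21.8, 21.5 and 20.3 in WT and 23.2, 22.0 and 22.7 in sgPrrx1 WHF (difference 1.67, SE 0.039). The 3 edited CAF cultures thus stood well above every other culture.

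Interferon-response genes, which cells switch on against viral nucleic acid, were positive in 33 and negative in 4 of 38 by the test of any difference. Over all genes, 38.2% were positive and 38.1% negative by this test. Past the 2-fold rule, 15 were positive and 0 negative. The median effect was 0.18 in CAF and −0.64 in WHF. Zbp1, a sensor of left-handed nucleic acids, was at 78.3, 79.4 and 81.2 CPM in WT CAF and 157, 161 and 162 in sgPrrx1 CAF, and fell from 7.68, 7.22 and 8.28 to 0.322, 0.409 and 0.647 in WHF (difference 5.11, SE 0.151). Cmpk2, a mitochondrial nucleotide kinase, went from 19.0, 18.6 and 18.0 to 77.7, 81.0 and 79.8 CPM in CAF and from 17.5, 15.3 and 16.8 to 7.31, 6.61 and 6.60 in WHF (difference 3.37, SE 0.072). Both genes were picked for large differences. In both, all 3 edited cultures stood apart from all 3 WT cultures, upwards in CAF and downwards in WHF. MHC class I genes, which present peptides to T cells, resembled this list, with 6 of 18 positive and 0 negative past the 2-fold rule. H2-K1, a class I heavy chain, was at 129, 132 and 138 CPM in WT CAF and 435, 441 and 431 in sgPrrx1 CAF, and at 125, 134 and 122 in WT WHF and 78.4, 75.8 and 80.4 in sgPrrx1 WHF (difference 2.41, SE 0.051). The 2 strains carry different class I alleles, and reads of related H2 genes can be shared, so these counts are uncertain.

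The core of the interferon-stimulated response element, which is GAAA, any 2 bases and GAAA, was found on either strand in 389 of 14652 promoters (2.65%). It was present in 12 of 32 promoters of interferon-response genes (37.5%), and it overlapped neither TAATTA nor the CArG box in any promoter. Windows of 3 genes that were higher in edited CAF and lower in edited WHF are shown because they carry this element near the start, with matches in capitals on the coding strand, where a match on the other strand reads TTTC, any 2 bases and TTTC. Gbp3, a guanylate-binding protein, and Oas1a, an oligoadenylate synthetase, each hold 2 overlapping matches, and Rsad2, the antiviral enzyme viperin, holds 1. Their differences were 1.40 (SE 0.066), 1.81 (SE 0.038) and 2.25 (SE 0.036). Not all genes with the element behaved in this way. Ifit1, Ifit3, Ifit3b, Isg15, Stat2 and Gbp2 also hold it and were lower after editing in both types, and Oas3 was higher in both. The windows of Gbp3, Oas1a and Rsad2 lie at chr3:142559944-142560043 (plus strand), chr5:120907526-120907625 (minus strand) and chr12:26456518-26456617 (minus strand).
Gbp3: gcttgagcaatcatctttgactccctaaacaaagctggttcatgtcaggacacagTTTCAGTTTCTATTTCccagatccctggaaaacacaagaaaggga
Oas1a: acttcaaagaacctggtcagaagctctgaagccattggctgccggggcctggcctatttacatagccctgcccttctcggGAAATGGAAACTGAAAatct
Rsad2: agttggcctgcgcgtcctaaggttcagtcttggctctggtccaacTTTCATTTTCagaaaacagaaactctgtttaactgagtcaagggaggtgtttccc

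Hox and other positional factors, which keep a memory of body position in fibroblasts, were balanced around 0 (median −0.02), with 14 of 56 positive and 8 negative past the 2-fold rule. Hoxb13, the most posterior gene of its cluster, had 0 counts in WT CAF and 25.8, 24.4 and 26.8 CPM in sgPrrx1 CAF (at least 2930-fold higher), beside 0.0453, 0.141 and 0.0718 in WT WHF and 0.690, 0.619 and 0.647 in sgPrrx1 WHF. It thus went from undetected to abundant in CAF, and in WHF it rose by 2.94 on the log2 scale (adjusted p = 1.3e-06, edgeR) but stayed under 1 CPM.

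Cell-cycle genes were positive in 40 and negative in 14 of 55 by the test of any difference, beside 38.2% and 38.1% of all genes. Past the 2-fold rule, 12 were positive and 3 negative. Top2a, a topoisomerase of dividing cells, was at 254, 244 and 259 CPM in WT CAF and 804, 818 and 810 in sgPrrx1 CAF, and at 478, 488 and 490 in WT WHF and 364, 368 and 355 in sgPrrx1 WHF (difference 2.11, SE 0.031). Mad2l1, of the spindle checkpoint, was higher in edited CAF and lower in edited WHF as well (difference 2.52, SE 0.027). Cdkn1a, the p53 target that blocks cycling, was at 177, 186 and 184 CPM in WT CAF and 79.0, 79.6 and 79.9 in sgPrrx1 CAF, and rose from 252, 244 and 252 to 567, 550 and 572 in WHF (difference −2.37, SE 0.033). Mdm2, another p53 target, differed in the same sense (−1.42, SE 0.044). Top2a and Mad2l1 thus lay on one side of the comparison and these p53 targets on the other.

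Glycolysis and hypoxia genes had 7 of 37 past the 2-fold rule (18.9%), a smaller share than the 22.9% of all genes. All 7 were positive, and the median difference of the list was 0.24. Adm, or adrenomedullin, which hypoxia induces, was at 83.3, 86.2 and 80.2 CPM in WT CAF and 101, 103 and 98.3 in sgPrrx1 CAF, and fell from 63.6, 62.3 and 65.2 to 1.41, 1.63 and 1.78 in WHF (difference 5.59, SE 0.075). Slc16a1, a lactate transporter, went from 44.8, 45.7 and 47.1 to 205, 210 and 205 CPM in CAF and from 100.4, 99.9 and 99.3 to 83.2, 84.6 and 82.7 in WHF (difference 2.43, SE 0.030). Among 23 adipogenic and lipid genes, 6 were positive and 2 negative. Fabp4, a fatty acid carrier of adipocytes, was at 7.40, 7.21 and 6.76 CPM in WT CAF and 195, 187 and 187 in sgPrrx1 CAF, and near 1 CPM in WHF, while Pparg, the master regulator of fat cells, fell in both and more in CAF (difference −2.39, SE 0.130). The sum of 6 adipocyte markers was 20.4 to 20.9 CPM in WT CAF, where Pparg led, and 188 to 197 in sgPrrx1 CAF, where Fabp4 made up nearly all of it, and 6.02 to 7.03 in WT and 4.60 to 4.88 in sgPrrx1 WHF. Of the 6, 2 were at 0 in every culture, and their part in the result was not tested. Cytosolic ribosomal proteins had 1 of 47 past the 2-fold rule, Rpl27 (1.07, SE 0.019), and a median of 0.35.

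Some strong effects were close in size in both types. Of the 610 genes that changed at least 2-fold in the same direction, 55 had a 95% interval of the difference within 0.5 of 0 on the log2 scale. Over all genes, that interval lay within 0.5 of 0 in 3624 (24.4%). Fbln5, an elastic fibre protein, was at 504, 514 and 503 CPM in WT CAF and 101, 103 and 101 in sgPrrx1 CAF, and at 125, 127 and 124 in WT WHF and 26.8, 24.5 and 24.2 in sgPrrx1 WHF. The fall was −2.32 and −2.31, and the 95% interval of the difference ran from −0.11 to 0.09. Cd248, the stromal marker endosialin, fell by 2.44 on the log2 scale in CAF and by 2.07 in WHF (95% interval of the difference −0.49 to −0.25), a small difference that was still called (adjusted p = 3.85e-05, edgeR). Pcdh7, a protocadherin, rose by 1.90 and 1.92 (difference −0.02, SE 0.027), and the chemokine Ccl5 by 1.61 and 1.72 (difference −0.11, SE 0.058). These genes were chosen for their likeness, so their small differences are a description.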

How the data were processed

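Bulk RNA-seq of 12 mouse fibroblast cultures was used. According to the methods and labels, libraries were made with a kit that does not mark strand, sequenced as paired ends, and processed with Trimmomatic for read trimming, STAR for alignment to the mm10 build and HTSeq for counting reads per gene. The authors deposited whole-number counts per gene in 1 table for each cell source. Their methods name ComBat-seq batch correction directly after the alignment of human data, without saying whether the mouse counts were corrected too, so the counts may or may not hold that adjustment. Column names of the wound table give genotype and number, and the cell type follows because no other samples have these labels. Without strand, overlapping and antisense genes cannot be told apart. The table of embryonic fibroblasts (9 of 21 cultures) was not used.

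Genes in both tables were joined by symbol. In R 4.3.3, genes were filtered with filterByExpr, scaled by TMM and fitted with edgeR 4.0.16 (glmQLFit, 4 groups, no replicate block). The contrast (CAF sgPrrx1 − CAF WT) − (WHF sgPrrx1 − WHF WT) was tested with glmQLFTest and, against a log2 difference of 1, with glmTreat, the 2-fold rule. All p-values were Benjamini-Hochberg adjusted over 14853 genes, with a threshold of 0.05. The steps were tested on simulated data. Replicates differed by more than counting noise, with a chi-square per degree of freedom of 13.62 to 34.34. Such spread may be technical and does not show that the cultures are independent. All 12 were treated as separate samples. A group at 0 counts was set to 3 counts over the group for a bound, which covers counting error only. Of counts from 1 to 20, 51.0% to 55.2% a culture were even, so some read pairs may have been counted as 2. Library totals, bounds and floors would then stand for fewer fragments than printed, and counts divided by 2 were tried.

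Genes named were members of the transcription factor list past the 2-fold rule, the 8 most positive and 8 most negative differences at 10 CPM or more in both types, up to 8 opposite genes each way by the smaller effect, up to 3 a direction in each list, and 4 alike genes each way. Part of these were left out of the text, and results of some genes are not reported here. Myl9, Srf, Acta2, Fn1, Col1a1, Postn, Pdgfra, Smad7, Myocd, Cnn2, Fhl2, Vcl, Gbp3, Gbp2, Oas1a, Oas3, Rsad2, Ifit1, Ifit3, Ifit3b, Isg15, Stat2 and the cell type markers fall outside this rule, and the former were chosen after their values were seen. The comparison and the lists were chosen with earlier results of these data known. Promoters came from RefSeq (GRCm38.p6), matched by symbol for 11570 genes. Alternatives were DESeq2 1.42.0, other scalings and filters, a replicate block, separate fits, thinning, halved counts (divided by 2) and leaving out each culture. Python 3.11.15, numpy 2.4.6, pandas 2.3.3 and matplotlib 3.10.9 were used for summaries and plots.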

Additional observations from a re-analysis of the deposited data

Results flagged for a closer look

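Results in this section were picked out because the effect of editing differed between MMTV-CAF and WHF by a test of the difference itself. The sgPrrx1 effect differed at 11329 genes, by more than 2-fold at 3401, and 569 genes moved at least 2-fold in opposite directions (231 with at least 10 counts in every culture), by edgeR's quasi-likelihood tests. Among the opposite genes named, the difference (log2, CAF minus WHF) was 8.11 for Hlf, 6.71 for Pde1a, 6.53 for Aqp5, 6.11 for Kcnab1, 5.30 for Elmo1, 5.23 for Casp4 and 4.88 for Xlr. In the other direction it was −11.59 for Gdf10, −8.96 for Ifi27l2b, −8.43 for Greb1, −8.02 for Id4, −7.38 for Acsbg1, −6.52 for Prl2c3, −6.14 for Srgap1 and −4.41 for Samd5. Both effects of these 15 genes had to be called and at least 2-fold, which favours groups that do not overlap. That the edited and WT cultures of all 15 did not overlap in either type is thus a description. For Prl2c3 the edited WHF cultures were uneven. Groups of 3 are too small to judge a single outlying culture by a test, although each culture was left out in turn. Strain, sex of the line and table changed together with cell type and cannot be told apart from it.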

How the results depend on the processing

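Over the alternative settings, the number of genes whose effects differed ranged from 10117 to 11459, and the number past the 2-fold rule from 2472 to 3413. The number that moved in opposite directions was 231 (99 higher and 132 lower in CAF) when at least 10 counts were required in every culture, which tested 12009 genes and removes genes silent in any group. Under the other settings it was 435 to 584. Leaving out each culture in turn gave 11088 to 11208, 3324 to 3357 and 533 to 556 genes for these 3 counts. DESeq2 gave 11459, 3104 and 574. Library totals alone moved the median effect over all genes by 0.107 in CAF and 0.112 in WHF, and left the median difference at 0.004. With the replicate number as a replicate block within cell type the counts were 11078, 3256 and 537. Deviations of same-numbered cultures did not correlate (−0.082 to 0.087 in CAF, −0.161 to −0.08 in WHF, over 11069 genes), so the numbers were not taken to pair the cultures. Of the genes named in the text, Prl2c3 had no adjusted p under DESeq2, and the cause was not tested. Over the alternatives, gene results were classed as the same 3089 times, as moved 22 times and as weaker 3 times. List medians were classed as the same 317 times and as moved 145 times. Besides Wnt and complement genes, the median changed sign for other collagens (−0.346 to 0.159) and integrins (−0.529 to 0.001). It also did so for Hox and positional factors (−0.057 to 0.153) and for Prrx and core factors (−0.002 to 0.155).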

Other observations

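Marker lists of cell types not expected in these cultures also differed between groups. The 6 Schwann and neural markers summed to 38.5 to 40.2 CPM in WT CAF and 6.91 to 7.10 in sgPrrx1 CAF, and to 44.9 to 49.7 in WT WHF and 24.5 to 25.4 in sgPrrx1 WHF, and the beta-tubulin Tubb3 led in all groups. The 8 endothelial markers summed to 297 to 303 CPM in WT WHF and 145 to 149 in sgPrrx1 WHF, almost all of it Kdr, while Tie1 and Cldn5 were at 0 in every culture. The 18 epithelial markers summed to 56.0 to 58.0 CPM in WT CAF and 2.52 to 3.16 in sgPrrx1 CAF, and to 57.2 to 62.4 in WT and 68.6 to 73.5 in sgPrrx1 WHF, with Krt19 the most abundant except in sgPrrx1 CAF, where Muc1 led. The 10 keratinocyte markers summed to 4.96 to 5.72 CPM in WT CAF and 36.4 to 38.6 in sgPrrx1 CAF, where Trp63 led, and Krt1, Krt15 and Dsg3 were at 0 in every culture. The 6 skeletal muscle markers stayed at or below 5.97 CPM in every culture. The part of such cells in the results was not tested.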
